A study of Homo sapiens with 11 samples.

Results

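GFRA1 encodes the cell-surface co-receptor for GDNF, and it was among the genes with a higher level in tumours of mice given evexomostat than in tumours of mice given vehicle. It is described here with 6 other genes of the GDNF family, the co-receptor genes GFRA2 and GFRA3, the receptor gene RET and the ligand genes GDNF, NRTN and ARTN. These 7 genes were taken by symbol out of 28152 symbols in the deposited tables. GFRA1 was picked for its difference between the treatment groups in these same libraries, so its difference is given as a description and no test of it is reported. The other 6 were taken because they belong to the same ligand and receptor family.

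Ligands of the GDNF family are small secreted proteins that bind a co-receptor held on the membrane by a lipid anchor, and the pair then brings together copies of RET, a receptor tyrosine kinase. Each ligand has a preferred co-receptor: GDNF binds GFRA1, neurturin (NRTN) binds GFRA2 and artemin (ARTN) binds GFRA3. The family is best known for the growth and survival of neurons and for kidney branching. In breast tumours with estrogen receptor, RET and GFRA1 are known as estrogen-responsive genes.

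The tumours grew in the fourth mammary fat pad of female athymic nude mice from BT-474 cells, which the labels describe as a human breast cancer line positive for hormone receptors and HER2. Every mouse, controls included, carried an estradiol pellet (0.72 mg, released over 90 days) and entered the study once its tumour exceeded 95 mm3. Evexomostat (SDX-7320, spelled SDX-7230 in one label field) inhibits methionine aminopeptidase 2, and was injected under the skin at 12 mpk, as the titles write the dose, every 4 days in 5% mannitol, while vehicle mice received the mannitol alone. All 11 libraries are labelled day 33, with 6 vehicle and 5 evexomostat tumours and 1 library per tumour. The animals' age is not given, a single cell line was used, and athymic mice lack mature T cells but keep stroma, vessels and nerves of the host.

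Libraries held 22808033 to 39249329 counts, so the counting floor of 3 reads lay between 0.0764 and 0.132 reads per 1000000 counted reads (RPM). Vehicle replicate 001 stood apart from the other libraries, whose 100 top genes took 23.9% of the reads, compared with 16.2% to 17.9% in the other 10. The labelled receptors were low in these libraries. ERBB2 lay at 22.97 to 65.3 RPM, ESR1 at 0.0375 to 0.597 RPM, and PGR and TFF1 had at most 5 counts in any library. Genes of the mesenchymal list varied, from ZEB1 at 22.95 to 35.6 RPM to VIM at 665 to 1691 RPM. Luminal genes varied too. KRT8 lay at 164 to 537 RPM and KRT18 at 98.7 to 196 RPM, while EPCAM, CDH1 and KRT19 reached at most 4.64 RPM. The ERBB2, ESR1 and PGR values go against the label's receptor status at the RNA level, and the tumours are called by their labels only.

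In the edgeR quasi-likelihood fit over 16653 genes, 101 genes (0.606%) had an adjusted p under 0.05. Of the 7 family genes, 4 passed the filter on low counts (GFRA1, RET, NRTN and ARTN). GFRA1 was chosen for this contrast, so its result against that threshold is not counted here. Of the other 3 tested genes, 0 passed, and 0 had an unadjusted p under 0.05 in that fit, as 13.4% of all tested genes had. ARTN came closest, at an unadjusted edgeR p of 0.0546. In DESeq2, where 3.92% of all genes passed, and in limma-voom, where 0.534% did, 0 of these 3 passed too. With 3 genes, counts of 0 are near those shares.

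GFRA1 was at 4.80, 4.90, 6.24, 7.78, 6.59 and 2.24 counts per 1000000 reads after scaling with TMM factors (CPM) in vehicle replicates 001, 003, 004, 005, 006 and 007. It was at 17.2, 12.3, 24.7, 24.8 and 34.1 CPM in evexomostat replicates 002, 003, 004, 005 and 007. The highest vehicle tumour, replicate 005, lay below the lowest evexomostat tumour, replicate 003, and the groups did not overlap, as in 1.33% of all tested genes in this direction. The means were 5.43 ± 1.92 CPM (SD, n = 6) and 22.6 ± 8.33 CPM (SD, n = 5). The evexomostat mean was 4.16-fold higher in the fit, which is 2.06 on the log2 scale (SE 0.31). By size of log2 fold change GFRA1 ranked 20 of 16653 genes, whose median log2 fold change was -0.04. That rank depends on which low genes are kept: it was 7 with a mean log2 CPM of at least 1 and 412 of 24459 genes without the count filter. The rank also moved with the model and the libraries used. It was 5 in limma-trend on log2(RPM + 1), 11 without evexomostat replicate 005 and 36 with a replicate block on 8 libraries. These values rest on 61 to 289 reads per vehicle library and 303 to 1096 per evexomostat library.

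The following refits describe the values that chose the gene and are no support for its difference. Leaving out each library in turn gave GFRA1 log2 fold changes between 1.86, without evexomostat replicate 007, and 2.21, without evexomostat replicate 003. Without vehicle replicate 007, the lowest of all, it was 1.90, and without vehicle replicate 001 it was 2.03. The authors' deposited table lists a log2 fold change of 2.13 for GFRA1.

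**Figure D1:**
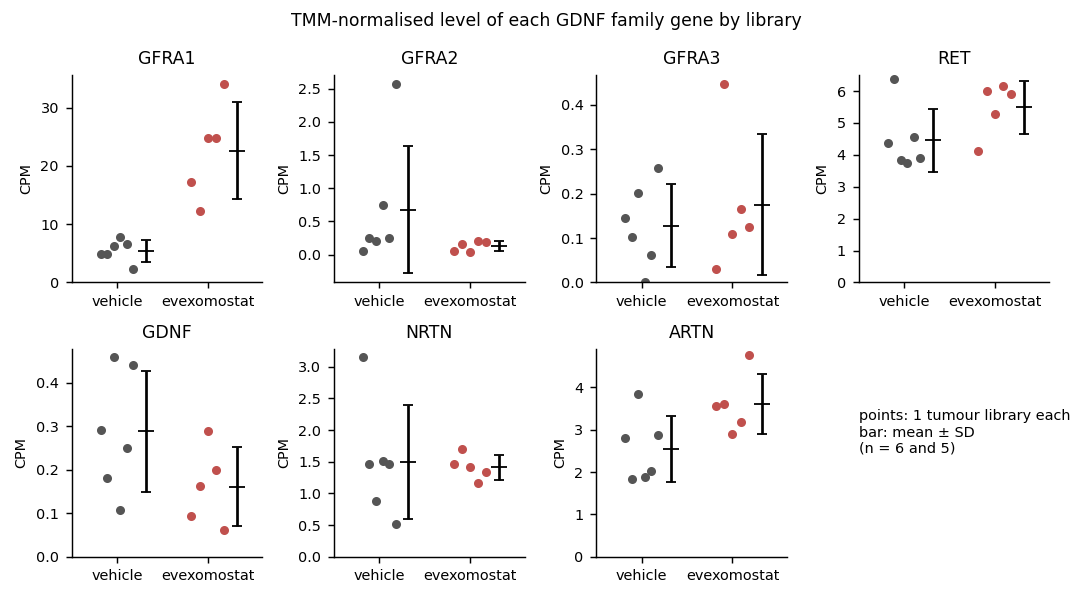
Each panel shows 1 gene, with TMM-normalised counts (CPM) on a linear vertical axis and the treatment group on the horizontal axis; points are single tumour libraries and bars are the mean ± SD (n = 6 vehicle, n = 5 evexomostat). GFRA1 is the gene whose groups do not overlap, with vehicle at 2.24 to 7.78 CPM and evexomostat at 12.3 to 34.1 CPM, while the other 6 genes overlap.

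Gene-level counts cannot say which start site the GFRA1 reads came from. RefSeq (GRCh38.p14) lists 4 start sites for the gene, which lies on chromosome 10 on the minus strand. The 250 bases before the most upstream of these starts, chr10:116274706-116274955 on the minus strand, are shown because this is the gene whose level differed; they lie upstream of every annotated exon of GFRA1, and capitals mark each CG dinucleotide.
GFRA1 upstream: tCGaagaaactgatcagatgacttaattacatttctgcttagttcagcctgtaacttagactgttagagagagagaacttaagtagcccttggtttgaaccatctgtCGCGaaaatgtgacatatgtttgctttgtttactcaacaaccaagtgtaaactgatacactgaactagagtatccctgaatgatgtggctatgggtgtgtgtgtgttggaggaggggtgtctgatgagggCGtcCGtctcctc
This stretch has 5 CG dinucleotides and a GC content of 43.2%, against medians of 11 and 58.0% over 35116 such windows. The next start downstream has 23 CG dinucleotides in its window and a GC content of 64.4%. Both strands were searched for the estrogen response element (GGTCA and TGACC with 3 bases between them), the single site AGGTCA, which can overlap that element, and the hypoxia core ACGTG. None of these is in any of the 4 GFRA1 windows. Of all windows, 0.0399% hold the element, 12.1% the single site and 18.5% the hypoxia core. No match says only that these letters are not in these 250 bases.

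GFRA2 and GFRA3, the co-receptors preferred by neurturin and artemin, were near the limit of detection in most tumours. GFRA2 had 1, 10, 7, 28, 8 and 70 counts in vehicle replicates 001, 003, 004, 005, 006 and 007, and 2, 4, 1, 6 and 6 in evexomostat replicates 002, 003, 004, 005 and 007. Of the 6 vehicle tumours, 5 lay above the highest evexomostat tumour in CPM, and vehicle replicate 001 lay among the evexomostat values. Vehicle replicate 007 alone gave 70 of the 124 vehicle reads. Means were 0.681 ± 0.957 CPM (SD, n = 6) and 0.129 ± 0.0747 CPM (SD, n = 5), and without replicate 007 the vehicle mean was 0.302 ± 0.266 CPM (SD, n = 5). GFRA2 did not pass the count filter. In edgeR without that filter its log2 fold change was -2.35 (SE 0.82, unadjusted p 0.0118, adjusted p 0.274). It was -1.25 (SE 0.62, adjusted p 0.537) when vehicle replicate 007 was left out too. The authors' comparison, for which their notes name edgeR, gave -2.26, with a p of 0.00549 and an adjusted p of 0.206. A difference was thus not shown at this depth.

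GFRA3 had 0 to 7 counts per vehicle library and 1 to 11 per evexomostat library. Its means were 0.128 ± 0.0933 CPM (SD, n = 6) and 0.175 ± 0.159 CPM (SD, n = 5), a difference smaller than the spread in either group. In edgeR without the count filter, its log2 fold change was 0.43 (SE 0.69, adjusted p 0.851). The highest value, 11 counts, came from evexomostat replicate 003, the evexomostat tumour with the least GFRA1.

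GFRA1 thus supplied nearly all co-receptor reads in 10 of the 11 tumours, with no correction for length. Read counts depend on length, and GFRA1 has 9429 bases of annotated exon, against 5160 for GFRA2 and 2039 for GFRA3. The GFRA1 share of the reads of GFRA1, GFRA2, GFRA3 and GFRA4 was 91.2% to 96.1% in vehicle replicates 001, 003, 004, 005 and 006 and 95.3% to 99.5% in the evexomostat tumours. In vehicle replicate 007 it was 44.2% (61 of 138 reads, 95% Wilson interval 36.2% to 52.5%, which covers counting error only). That tumour had both the lowest GFRA1 level and the highest GFRA2 level of all 11.

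RET, the signalling receptor shared by all 3 ligands, was present in every tumour. It was at 4.36, 6.37, 3.84, 3.74, 4.56 and 3.90 CPM in vehicle replicates 001, 003, 004, 005, 006 and 007, and at 4.13, 6.00, 5.29, 6.16 and 5.91 CPM in evexomostat replicates 002, 003, 004, 005 and 007. The groups overlapped at both ends, since vehicle replicate 003 was the highest of all tumours and evexomostat replicate 002 lay within the lower vehicle values. Means were 4.46 ± 0.990 CPM (SD, n = 6) and 5.50 ± 0.833 CPM (SD, n = 5). The log2 fold change was 0.30 (SE 0.19, edgeR adjusted p 0.559). Leaving out single libraries moved it between 0.26 (edgeR adjusted p 0.747, without evexomostat replicate 005) and 0.43 (edgeR adjusted p 0.354, without vehicle replicate 003).

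In reads per library, GFRA1 and RET were of similar abundance in vehicle tumours and differed in evexomostat tumours. The ratio of GFRA1 to RET reads ran from 0.575 to 2.08 under vehicle (median 1.27) and from 2.05 to 5.77 under evexomostat (median 4.17). The ranges met at vehicle replicate 005 and evexomostat replicate 003. The ratio contains the GFRA1 difference and is no separate evidence of it.

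**Figure D2:**
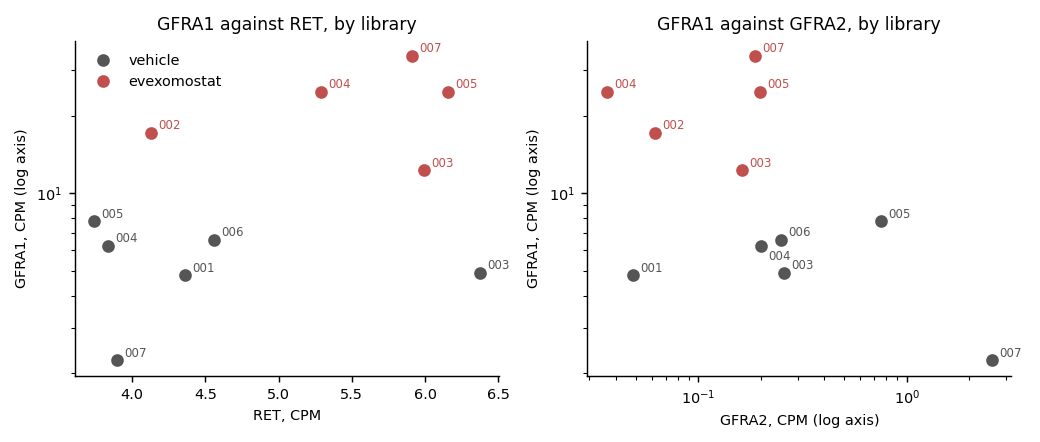
GFRA1 (vertical, log axis, CPM) is plotted against RET (left, linear axis, CPM) and GFRA2 (right, log axis, CPM), with 1 point per tumour labelled by replicate number. The 5 evexomostat tumours lie above all 6 vehicle tumours in GFRA1 but share the RET range of 3.74 to 6.37 CPM, and vehicle replicate 007 sits at the lower right of the GFRA2 plot with 2.57 CPM of GFRA2 and 2.24 CPM of GFRA1.

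Among the ligands, artemin and neurturin reads were found in every tumour and GDNF reads were few. ARTN was at 2.81, 1.83, 3.84, 1.88, 2.03 and 2.87 CPM in vehicle replicates 001, 003, 004, 005, 006 and 007. It was at 3.57, 3.61, 2.90, 3.18 and 4.76 CPM in evexomostat replicates 002, 003, 004, 005 and 007. All vehicle tumours except replicate 004 lay below the lowest evexomostat tumour. Means were 2.54 ± 0.782 CPM (SD, n = 6) and 3.602 ± 0.709 CPM (SD, n = 5). On the log2 scale the difference was 0.50 (SE 0.24), with an unadjusted edgeR p of 0.0546 and an adjusted p of 0.384. The authors' comparison, for which their notes name edgeR, gave 0.60, with a p of 0.0352 and an adjusted p of 0.514. Leaving out single libraries moved the value fitted here between 0.38 (edgeR adjusted p 0.682, without evexomostat replicate 007) and 0.66 (edgeR adjusted p 0.272, without vehicle replicate 004).

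NRTN, the neurturin gene, was at 3.15, 1.47, 0.888, 1.51, 1.47 and 0.515 CPM in vehicle replicates 001, 003, 004, 005, 006 and 007. It was at 1.46, 1.70, 1.41, 1.16 and 1.34 CPM in evexomostat replicates 002, 003, 004, 005 and 007. The vehicle tumours spanned a wider range than the evexomostat tumours and enclosed all of them. Means were 1.4998 ± 0.903 CPM (SD, n = 6) and 1.41 ± 0.197 CPM (SD, n = 5), and the log2 fold change was -0.07 (SE 0.37, edgeR adjusted p 0.962). Its sign rests on vehicle replicate 001, without which the log2 fold change was 0.27 (SE 0.29, edgeR adjusted p 0.599), and it was also positive in limma-voom (0.13).

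GDNF, the preferred ligand of GFRA1, had 6, 7, 16, 4, 8 and 12 counts in vehicle replicates 001, 003, 004, 005, 006 and 007, and 3, 4, 8, 6 and 2 in evexomostat replicates 002, 003, 004, 005 and 007. The groups overlapped, with 3 vehicle tumours above the highest evexomostat tumour in CPM. Means were 0.288 ± 0.140 CPM (SD, n = 6) and 0.161 ± 0.0900 CPM (SD, n = 5). In edgeR without the count filter, the log2 fold change was -0.82 (SE 0.49, adjusted p 0.572). GDNF-AS1 overlaps GDNF on the other strand and had 0 to 5 counts of its own. The use of strand is not given in the sources used here, so reads from any bases the 2 genes share may not have been told apart.

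ARTN gave 43.6% to 73.6% of the reads of the 4 GDNF family ligands in vehicle tumours (median 52.7%) and 61.8% to 76.9% in evexomostat tumours (median 69.3%). PSPN (persephin), the remaining ligand of RET co-receptors, had 1 to 4 counts per vehicle library and 0 to 9 per evexomostat library. Its co-receptor GFRA4 had 0 counts in all 11 libraries, as did GFRAL, the brainstem receptor of GDF15. A count of 0 allows up to 0.0764 to 0.132 RPM in a library, depending on its depth.

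GDF15, a stress-induced hormone that signals through GFRAL and RET, was the most abundant ligand gene in this group by CPM. It lay between 9.08 and 82.2 CPM in vehicle tumours (median 37.7) and between 22.3 and 63.4 CPM in evexomostat tumours (median 43.4). Its log2 fold change was 0.07 (SE 0.53, edgeR adjusted p 0.978), but it ran from -0.14, without vehicle replicate 007, to 0.69 with a replicate block, where the edgeR adjusted p was 0.48.

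Read counts of different genes depend on transcript length, so levels were also set per kilobase of annotated exon. In vehicle tumours the order of mean levels was NRTN (1.28 ± 0.677 RPM per kb, SD, n = 6), ARTN (0.982 ± 0.305), RET (0.673 ± 0.161), GFRA1 (0.563 ± 0.214), GFRA2 (0.128 ± 0.177), GDNF (0.0667 ± 0.0328) and GFRA3 (0.0604 ± 0.0440). The ranges of all neighbours in this order overlapped, though GFRA1 and GFRA2 met through vehicle replicate 007 alone. In evexomostat tumours GFRA1 came first, at 2.48 ± 0.880 RPM per kb (SD, n = 5), ahead of ARTN (1.49 ± 0.276), NRTN (1.32 ± 0.209) and RET (0.887 ± 0.151). GFRA3 (0.0908 ± 0.0853), GDNF (0.0402 ± 0.0225) and GFRA2 (0.0261 ± 0.0153) were the lowest. Here the ranges of NRTN and RET did not overlap, nor did those of RET and GFRA3, while the other neighbours overlapped. Evexomostat tumours ranged from 1.41 to 3.66 RPM per kb for GFRA1 and from 0.643 to 1.01 for RET, so on this scale every evexomostat tumour had more GFRA1 than any of them had RET.

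**Figure D3:**
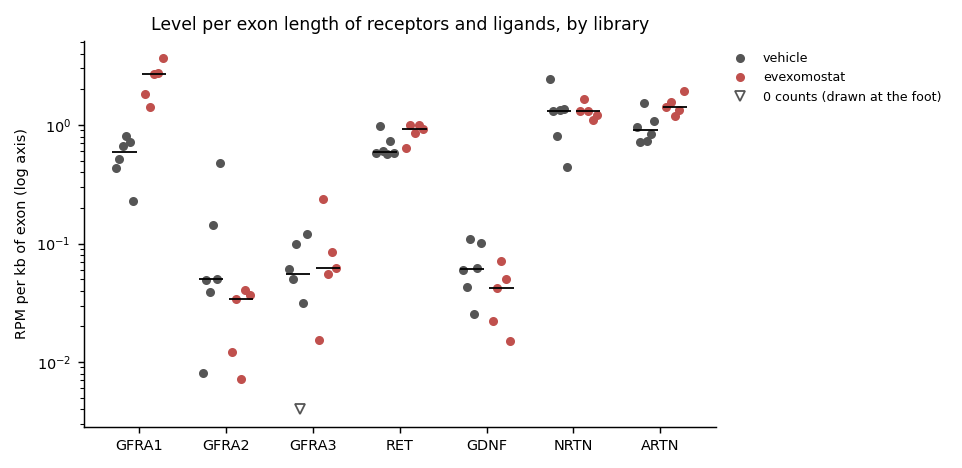
Levels per exon length (RPM per kb of exon, log axis) are plotted for the 7 genes, with 1 point per tumour library, black lines at group medians and an open triangle at the foot for the 1 library with 0 counts of GFRA3. GFRA1, RET, NRTN and ARTN lie above GFRA2, GFRA3 and GDNF in most tumours, and GFRA1 moves from a mean of 0.563 under vehicle to 2.48 under evexomostat.

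The other genes of the pathway were read from 6 lists with 68 genes, of which 54 passed the count filter. In edgeR 0 of these 54 were past the adjusted threshold, against 0.606% of all tested genes. An unadjusted p under 0.05 was found for 5 (9.26%), against 13.4% of all. DESeq2, which called 3.92% of all genes, called 1 of them (STAT3), and limma-voom, which called 0.534%, called 0. Limma-voom with quality weights, which called 6.36% of all genes, called 3 (STAT3, GAB2 and MANF). The same 3 genes were called by edgeR without vehicle replicate 001, where 5.22% of all genes were. In the 8 libraries whose replicate numbers are shared, fitted without a block, edgeR called 4.42% of all genes and 3 of these, STAT3, GAB2 and SPRY4, an ERK feedback inhibitor. Of the 54 genes, 0 had groups that did not overlap, against 2.97% of all tested genes. The median log2 fold change of the 54 was -0.09, against -0.04 for all tested genes, and 57.4% were below 0, against 55.4% of all.

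Other proteins that bind GDNF or its co-receptors are NCAM1, an adhesion molecule, SDC3, a proteoglycan, GAS1, a relative of the co-receptors, and SORL1, a sorting receptor. Of these 4, 0 passed in edgeR and 1 had an unadjusted p under 0.05, against 0.606% and 13.4% of all tested genes. GAS1 ran from 15.5 to 46.1 CPM in vehicle tumours (median 22.4) and from 16.0 to 19.97 CPM in evexomostat tumours (median 18.01). Its log2 fold change was -0.63 (SE 0.26, edgeR adjusted p 0.318). The list's median log2 fold change was -0.03.

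The adaptors and effectors that carry the RET signal included SHC1, FRS2, GRB2, GAB1, PLCG1 and STAT3, and 20 of 22 were tested. In edgeR 0 of 20 passed, against 0.606% of all tested genes. An unadjusted p under 0.05 was found for 3 (STAT3, GAB2 and NCK1), which is near the 13.4% of all tested genes. The log2 fold change was positive in 6, against 7427 of all 16653 tested genes. Its median was -0.15, against -0.04 for all. STAT3, a transcription factor activated by cytokine and kinase receptors, ran from 230.2 to 408 CPM in vehicle tumours (median 300.4) and from 186 to 236 CPM in evexomostat tumours (median 201). The groups overlapped, since the lowest vehicle tumour lay below the highest evexomostat tumour. Its log2 fold change was -0.57 (SE 0.15, edgeR adjusted p 0.112). DESeq2 gave an adjusted p of 0.0115 and edgeR without vehicle replicate 001 gave 0.0146 with a log2 fold change of -0.64; over all alternatives the adjusted p ran from 0.0115 to 0.28. GRB7, an adaptor whose gene lies beside ERBB2, had 3 to 8 counts per vehicle library and 7 to 18 per evexomostat library and was not tested.

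Genes that report or restrain signalling through ERK, which RET activates, were all measurable. In edgeR 0 of 12 passed and 1 had an unadjusted p under 0.05, against 0.606% and 13.4% of all tested genes. The list's median log2 fold change was -0.13. FOS, an immediate early transcription factor, ran from 12.5 to 29.8 CPM in vehicle tumours (median 16.5) and from 9.71 to 13.6 CPM in evexomostat tumours (median 11.8). Its log2 fold change was -0.61 (SE 0.22, edgeR adjusted p 0.237). ETV4 and ETV5, factors induced by GDNF in kidney and germ cells, had log2 fold changes of -0.15 (SE 0.14, edgeR adjusted p 0.715) and 0.15 (SE 0.14, edgeR adjusted p 0.731).

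Among transcription factors known at RET or GFRA1, 7 of 13 were tested, with a median log2 fold change of -0.12. In edgeR 0 passed and 0 had an unadjusted p under 0.05, against 0.606% and 13.4% of all tested genes. ESR1, the estrogen receptor, had 5 to 17 counts per vehicle library and 1 to 12 per evexomostat library (log2 fold change -0.49, SE 0.50, edgeR adjusted p 0.746). SOX10, a factor of neural crest cells in which RET is used, had at most 5 counts.

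Other neurotrophic ligands and receptors served as a comparison. In edgeR 0 of 10 tested genes passed and 0 had an unadjusted p under 0.05, against 0.606% and 13.4% of all. The median log2 fold change was 0.26. LIFR, the receptor of leukemia inhibitory factor, had the smallest p of the list. It was at 57.0 to 143 CPM in vehicle tumours (median 86.3) and 53.6 to 88.9 CPM in evexomostat tumours (median 61.1). Its log2 fold change was -0.48 (SE 0.23, edgeR adjusted p 0.387).

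**Figure D4:**
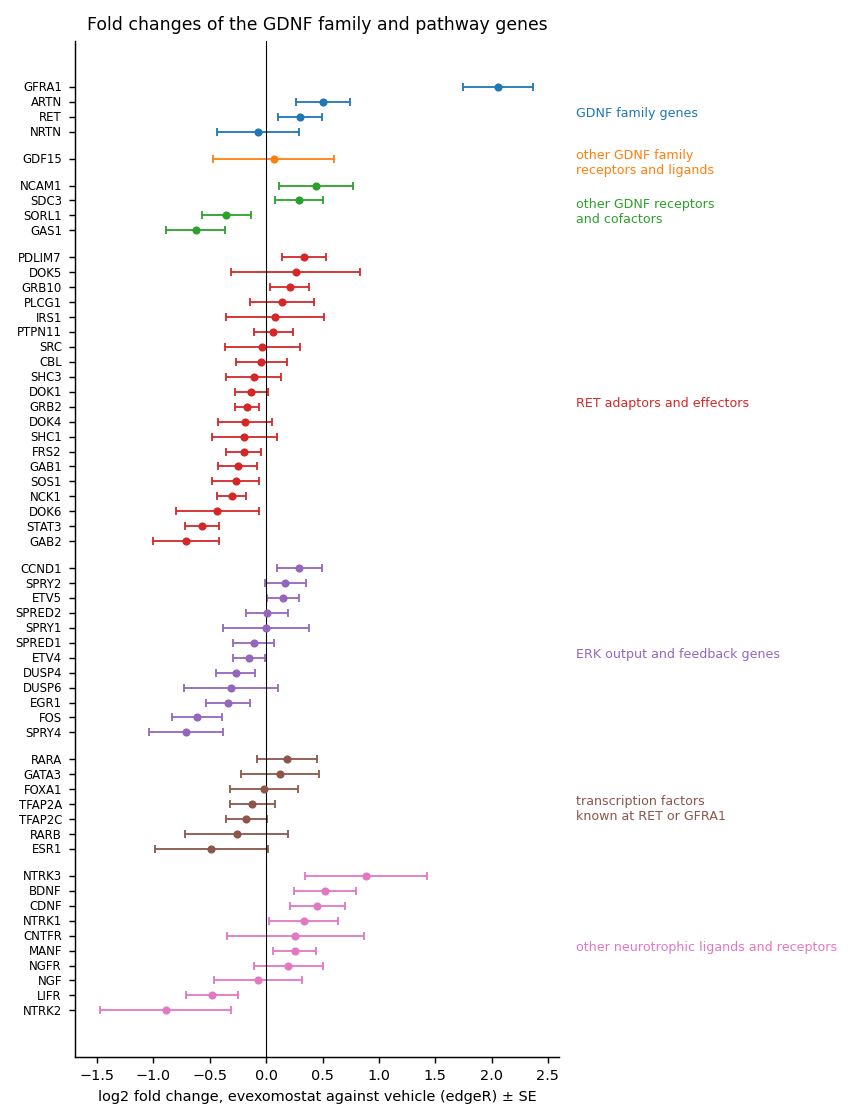
Log2 fold changes of evexomostat against vehicle (horizontal axis, edgeR, points with SE bars) are shown for the 4 tested GDNF family genes and the 54 tested genes of the 6 pathway lists, grouped and coloured by list. GFRA1 lies at 2.06, and every other gene lies between -0.89 (NTRK2) and 0.88 (NTRK3).

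GFRA1 also varied among tumours of the same treatment, and the genes that followed it there were sought with both group means subtracted. Over the 11 libraries and 13067 genes with a mean log2 CPM of at least 1, the 5 with the highest Pearson correlation were AJUBA (0.908), ANAPC15 (0.896), HYAL2 (0.879), UBE2QL1 (0.871) and LINC02035 (0.869). Their Spearman correlations were 0.636, 0.755, 0.764, 0.655 and 0.691. These are the top of a ranking of 13067 genes over few libraries that share depth and tissue makeup, and are given as a description. None of the 5 passed between the groups in edgeR, where 0.606% of all tested genes did. The log2 fold change of AJUBA, a scaffold protein of cell junctions, was 0.41 (SE 0.17, edgeR adjusted p 0.292), and that of HYAL2, a hyaluronidase, was 0.06 (SE 0.11, edgeR adjusted p 0.871). RET and ARTN did not follow GFRA1 within groups, with Pearson correlations of 0.083 and -0.115 and ranks of 5462 and 8391.

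Host nerve, muscle and stroma can also contain RNA of this family, and how mouse reads were handled is not given in the sources used here; in such bulk tissue fewer cells of a type and less RNA per cell cannot be told apart. Of 77 marker genes in 10 lists, 57 were tested and 0 passed in edgeR, against 0.606% of all tested genes. An unadjusted p under 0.05 was found for 10 (17.5%), against 13.4% of all. Limma-voom, which called 0.534% of all genes, also called 0. DESeq2, which called 3.92% of all genes, called 2 (FN1 and ACTA1). Limma-voom with quality weights, which called 6.36%, called 2 (FN1 and AXL). FN1, the fibronectin gene of the mesenchymal list, lay just outside the threshold. It was at 228 to 1418 RPM in vehicle and 107 to 206 RPM in evexomostat tumours, with no overlap. Of all tested genes, 2.97% had groups that did not overlap in CPM, counting both directions. The FN1 log2 fold change was -2.18 (SE 0.45, edgeR adjusted p 0.0503). Over the alternatives that adjusted p ran from 5.92e-05 in DESeq2 to 0.148 without evexomostat replicate 007, and it was 0.0132 without vehicle replicate 001, 0.0332 without vehicle replicate 005 and 0.0439 without the count filter. Of the 8 Schwann cell markers, the defining genes S100B and SOX10 had at most 3 and 5 counts in any library. The summed level of that list, carried mostly by L1CAM, was 106 to 533 RPM under vehicle and 323 to 601 RPM under evexomostat. Neuron markers (8 genes, mostly UCHL1 and TUBB3) summed to 652 to 1007 and 682 to 945 RPM, with at most 1 count of TH and at most 5 of ELAVL4. Neuroendocrine markers (5 genes) summed to 1.86 to 3.76 and 2.80 to 10.0 RPM.

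Fibroblast markers (7 genes) summed to 392 to 2065 RPM in vehicle and 500.1 to 1124 RPM in evexomostat tumours. Skeletal muscle markers (10 genes) summed to 2.27 to 20.4 RPM in vehicle tumours and 2.59 to 501 RPM in evexomostat tumours. The top of the latter came from evexomostat replicate 005, whose GFRA1 level was 24.8 CPM, and the GFRA1 log2 fold change without that library was 2.02. Endothelial (5 genes), leukocyte (5 genes) and adipocyte markers (5 genes) summed to 8.92 to 23.2, 35.5 to 88.2 and 0.345 to 1.90 RPM under vehicle and 10.0 to 14.8, 58.4 to 68.5 and 0.315 to 2.86 RPM under evexomostat. ADIPOQ had 0 counts throughout, and LEP, CDH5 and AIF1 had at most 2. The mesenchymal list (9 genes) summed to 2750 to 5305 and 2827 to 3891 RPM, and the luminal and HER2 list (15 genes) to 433 to 828.6 and 562 to 752 RPM. The part of these cell types, and of the FN1 difference, in the GFRA1 values was not tested.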

How the data were processed

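RNA from 11 tumours, 6 vehicle and 5 evexomostat, was sequenced as paired-end reads, per the labels' protocols. Groups and replicate numbers come from the titles, and table columns were matched to libraries by the code in each description. The submitters' processing notes name bcl2fastq 2.17, STAR 2.7.5c, featureCounts, Subread and edgeR, and the build GRCh37 (hg19); annotation, strand setting and handling of mouse reads are not given in the sources used here. The deposited count table holds whole-number counts per symbol, not normalized. The authors' RPM table holds those counts scaled to RPM, which differ by at most 2.27e-13 from values computed from the counts. The authors' deposited comparison table holds log2 fold changes, p-values and adjusted p-values, per the file headers, and group means in RPM.

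Counts were filtered with filterByExpr (minimum count 10, minimum total 15; 16653 of 28152 symbols kept), scaled with TMM factors and fitted over all genes with edgeR 4.0.16 (R 4.3.3), with no covariate, and p-values were adjusted by Benjamini-Hochberg with a threshold of 0.05. CPM values use the same factors, and the log2 CPM used to rank genes by likeness to GFRA1 a prior count of 2. Each p-value sets the group difference against the spread between tumours within the groups. The labels do not say how animals were housed or tumours processed. The p-values cannot separate treatment from these, had they differed between the groups. Library pairs were checked for duplicates (lowest chi-square per degree of freedom 16.4). Alternatives were DESeq2 1.42.0, limma 3.58.1 (voom with and without quality weights, and trend on log2 RPM with pseudocounts of 1 and 0.1), other scalings, other filters, a replicate block and leaving out each library; the fits were tested on simulated data. Exon length is the union of exons in GENCODE release 29 (GRCh38), another build than the authors', so levels per length are approximate. Upstream sequences are from RefSeq, matched by symbol. The family genes, lists and tests were chosen with earlier results of these data known. Genes named were all family genes, all of the 4 further receptors and ligands, the gene with the smallest p in each list where none passed, and the 5 genes most like GFRA1; ETV4, ETV5, GAB2, NCK1, MANF, GRB7, NTRK2, NTRK3, SPRY4, SOX10 and single marker genes were named after their values were seen. A few list genes are not reported here.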

Additional observations from a re-analysis of the deposited data

Results flagged for a closer look

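Within each group, the highest and the lowest library of each of the 7 genes was compared with the rest of its group, 28 comparisons in all. Chance picks out about 1 in 20 groups, or 0.7 of these, and 2 libraries stood apart. GFRA2 was at 2.57 CPM (70 counts) in vehicle replicate 007, against 0.0485 to 0.754 CPM in the other vehicle tumours. RET was at 6.37 CPM (247 counts) in vehicle replicate 003, against 3.74 to 4.56 CPM in the other vehicle tumours. The cause of either value was not tested.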

How the results depend on the processing

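The GFRA1 log2 fold change lay between 1.86 and 2.21 over the fits that each left out 1 library and between 1.95 and 2.168 over the other 11 alternatives, and none of RET, NRTN and ARTN passed in any alternative. The count of 101 genes (29 higher, 72 lower) became 649 in DESeq2 (200 and 449), 1059 with quality weights (384 and 675) and 1 to 865 when 1 library was left out (1 to 328 higher, 0 to 537 lower); the 865 came without vehicle replicate 001, and the 0 without evexomostat replicate 005 (edgeR; 1169 lower genes at an unadjusted p under 0.05). The lower genes were 42 of 70 with upper quartile scaling, and 31 of 74 and 30 of 68 with limma-trend at pseudocounts of 1 and 0.1, where the median log2 fold change of all genes was 0.075 and 0.098 in place of -0.039. Numbers 003, 004, 005 and 007 are found in either group, and same-numbered tumours deviated with correlations of -0.27, 0.07, 0.05 and -0.10. These values alone cannot show whether the numbers pair the tumours, and the labels do not say. The replicate block on those 8 libraries gave 107 genes and a GFRA1 value of 2.165, and the same 8 without it 733 genes (225 higher, 508 lower) and 2.168. NRTN turned positive in limma-voom (0.13), with quality weights (0.16), in limma-trend (0.077 and 0.18), with the block (0.43), in the same 8 libraries without it (0.33) and without vehicle replicate 001, in a leave-one-out range of -0.25 to 0.27. Left out singly, libraries moved GDF15 from -0.14 to 0.40 (0.42 in limma-voom, 0.50 and 0.53 in limma-trend, 0.69 with the block) and LINC02035 from -0.025 to 0.23. The causes were not tested. Levels of GFRA2, GFRA3 and GDNF are limited by depth, at 0 to 28 counts in all libraries but 1.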
